A study of Mus musculus with 6 samples.

Results

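The Myc and Max network is a set of basic helix-loop-helix leucine zipper transcription factors, and p53 peaks were collected here at 9 of its genes: Myc, Mycn, Max, Mxd1, Mxd3, Mxd4, Mxi1, Mnt and Mga. They are 9 of the 22367 protein-coding genes of the GENCODE vM1 annotation on mm9, and were taken by name, with each gene body extended by 10 kb on both sides as its window. They were read from lists of p53 ChIP-seq peaks in mouse spleen, a peak being a stretch of the genome where DNA fragments recovered with an antibody pile up. All mice were of the C57/Bl6 strain, and a polyclonal antibody against p53 was used throughout. The wild-type (Trp53+/+) mice were 8 weeks old and were either mock treated or given 7 Gy of whole-body irradiation (IR) and examined 4 h later. Their spleens were divided with magnetic beads against B220, a B cell surface protein, into a bound B cell fraction and a flow-through taken as non-B cells. The fifth list came from total spleen of Trp53-/- mice 4 h after 7 Gy, which was not the same cell population as either fraction and whose age is not stated in the labels. A further library of input DNA has no peak list and was not used here. Chromatin was pooled across animals and each group had 1 library, so no value below has a replicate spread, no test between conditions was possible and every comparison describes these lists alone. Peak lists carry no expression values, so neither the purity of the fractions nor the deletion of Trp53 could be checked against marker genes, and binding in more cells could not be told apart from stronger binding per cell.

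Myc and its paralog Mycn bind DNA as dimers with Max, chiefly at the E-box sequence CACGTG, and activate genes for ribosome production, metabolism and the cell cycle. The Mxd proteins (Mxd1, Mxd3, Mxd4 and Mxi1, also called Mxd2) and Mnt bind Max as well and bring Sin3 corepressors to the same sites, while Mga pairs with Max within a Polycomb complex. In B lymphocytes Myc is raised when cells are activated, and its forced expression drives lymphoma in mice.

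The sequences on which the findings turn are given first, from the mm9 reference. The first is a peak listed without irradiation at Mycn, shown because it lies wholly within a coding exon, and capitals mark coding bases. The next is the edge of the highest Mycn peak of the mock-treated non-B cell list, shown because capitals (coding exon) give way to lower case (intron) next to the place where the peak ends.
Mycn, mock-treated B cells, chr12:12946960-12947039, minus strand: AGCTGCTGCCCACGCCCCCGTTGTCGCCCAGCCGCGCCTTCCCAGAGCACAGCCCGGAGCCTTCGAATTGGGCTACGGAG
Mycn, edge of a mock-treated non-B cell peak, chr12:12946389-12946448, minus strand: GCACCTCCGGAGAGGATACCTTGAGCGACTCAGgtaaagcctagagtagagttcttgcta

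A further set belongs to the irradiated lists. Capitals mark a match to the p53 response element in the Mxd4 promoter and in the Pvt1 intron downstream of Myc. They also mark the E-box CACGTG at or near the Max and Mnt starts.
Mxd4 promoter, chr5:34530419-34530478, minus strand: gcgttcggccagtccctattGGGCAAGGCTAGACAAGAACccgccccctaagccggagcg
Pvt1 intron, chr15:61870742-61870801, plus strand: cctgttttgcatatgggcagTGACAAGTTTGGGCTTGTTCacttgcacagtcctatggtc
Max start, chr12:78063221-78063250, minus strand: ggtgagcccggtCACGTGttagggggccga
Max upstream, chr12:78063496-78063525, minus strand: cccagctccctcCACGTGtcctgtcttccc
Mnt upstream, chr11:74644291-74644320, plus strand: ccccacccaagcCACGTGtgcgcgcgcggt

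After irradiation most genes of the network had a p53 peak within their window, and without it Myc and Mycn did. In irradiated B cells 7 of the 9 genes had at least 1 peak, against 53.3% of all protein-coding genes, and in irradiated non-B cells also 7 of 9, against 51.8%. In mock-treated B cells 2 of 9 had one, against 4.46% of all genes, and in mock-treated non-B cells 2 of 9, against 2.27%. In the Trp53-/- list none of the 9 had one, against 0.125% of all genes. Myc, Max, Mxd3, Mxd4, Mnt and Mga had peaks in both IR lists, that of Mxd3 in irradiated non-B cells near the bottom (rank 20834 of 21400). Of the IR lists, Mxd1 had peaks in B cells alone and Mycn in non-B cells alone. Mxi1 had none in any list. The windows were of ordinary length, with a median of 34.8 kb against 35.4 kb over all genes. They held 24 peaks in irradiated B cells, 20 in irradiated non-B cells, 3 in mock-treated B cells and 5 in mock-treated non-B cells. Per megabase of window this came to 58.7 and 48.9 peaks in irradiated B and non-B cells, against 15.3 and 13.5 over all genes, and to 7.34 and 12.2 in the mock lists, against 0.817 and 0.404.

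**Figure D1:**
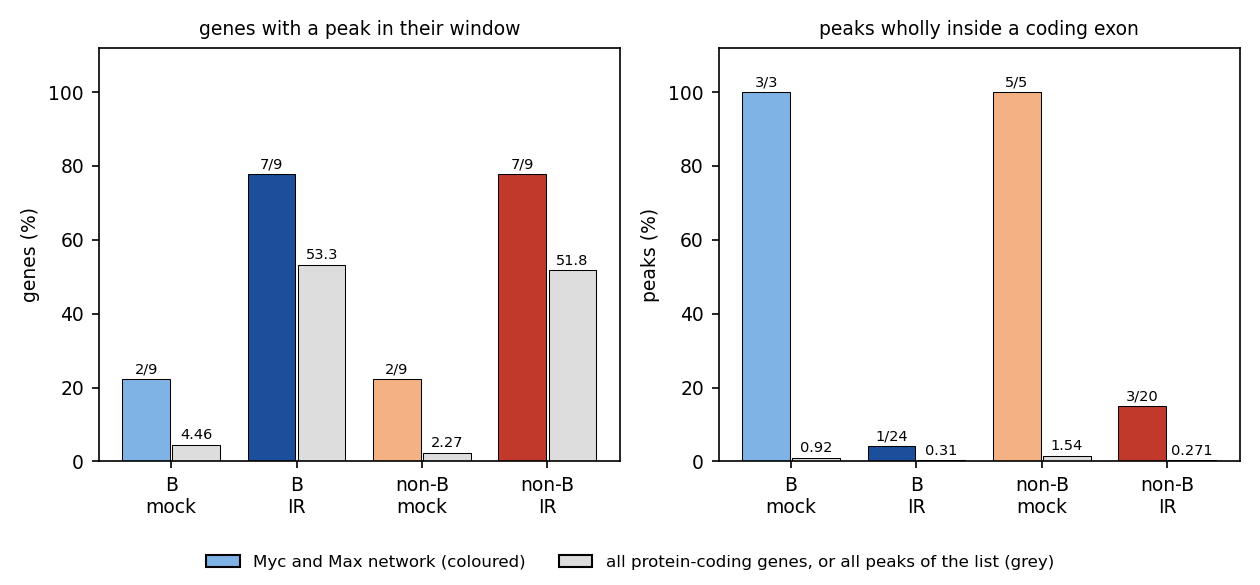
Left, the percentage of genes with at least 1 peak in the gene body or 10 kb either side, for the 9 network genes (coloured bars, with the number of genes) and all 22367 protein-coding genes (grey bars), in each wild-type list. Right, the percentage of peaks lying wholly inside a coding exon, for peaks in the network windows (coloured, with the number of peaks) and for all peaks of the list (grey), where the coloured bars of both mock lists reach 100%.

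Several genes had more than 1 peak after irradiation. At least 2 peaks stood in the windows of 6 of the 9 genes in irradiated B cells and of 6 in irradiated non-B cells, against 29.2% and 26.6% of all genes. At least 5 stood at Myc and Mnt in both IR lists, and such numbers were found at 5.15% and 3.83% of all genes. Counting only peaks with a midpoint from 5 kb upstream to 2 kb downstream of a start of the gene, 5 genes were bound in irradiated B cells (Myc, Max, Mxd4, Mnt and Mga) and the same 5 with Mycn, 6 in all, in irradiated non-B cells, against 39.2% and 38.1%. In the mock lists Myc and Mycn, 2 genes in each, passed this rule, against 1.95% and 0.948% of all genes, and at least 2 window peaks stood at 1 gene in B cells (Mycn) and at 2 in non-B cells, against 1.14% and 0.559%.

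The strength of these peaks was judged by their deposited value, read here as −log10 of a peak p-value from its spacing, which was matched in part, and only by its rank within a list, since it is not comparable between libraries. A network gene's best peak stood, at the median, in the highest 20.6% (irradiated B cells) and 22.7% (irradiated non-B cells) of its list. Over all genes with a peak the medians were 33.5% and 32.5%. A gene with more peaks has more chances of a high best rank, and network genes more often had at least 2. A value of at least 20 was reached by 10 of the 24 network peaks in irradiated B cells and 11 of the 20 in irradiated non-B cells. The medians over all peaks of these lists were 19.5 and 19.4. A peak in the highest 20% of the list was found at 3 genes in irradiated B cells (Myc, Max and Mnt) and at 3 in irradiated non-B cells (Mxd4, Mnt and Mga), against 16.2% and 16.6% of all genes, so that Mnt alone was in that range in both. In the mock lists Mycn was the 1 gene in that range, against 0.925% (B cells) and 0.478% (non-B cells) of all genes. For scale, the best peak of Cdkn1a, the cell cycle inhibitor that is a standard p53 target, had rank 7 in irradiated B cells and rank 1 in irradiated non-B cells, and that of Mdm2, the ubiquitin ligase of p53, ranks 179 and 189. No network peak of the IR lists came near that range, as the highest rank was 4082 of 24507 (Mnt, irradiated B cells) and 3118 of 21400 (Mnt, irradiated non-B cells). In mock-treated non-B cells the best Mycn peak, at rank 89 of 712, stood between those of Cdkn1a at rank 50 and Mdm2 at rank 111. In mock-treated B cells it had rank 240 of 1413, below Cdkn1a at rank 54 and Mdm2 at rank 188.

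**Figure D2:**
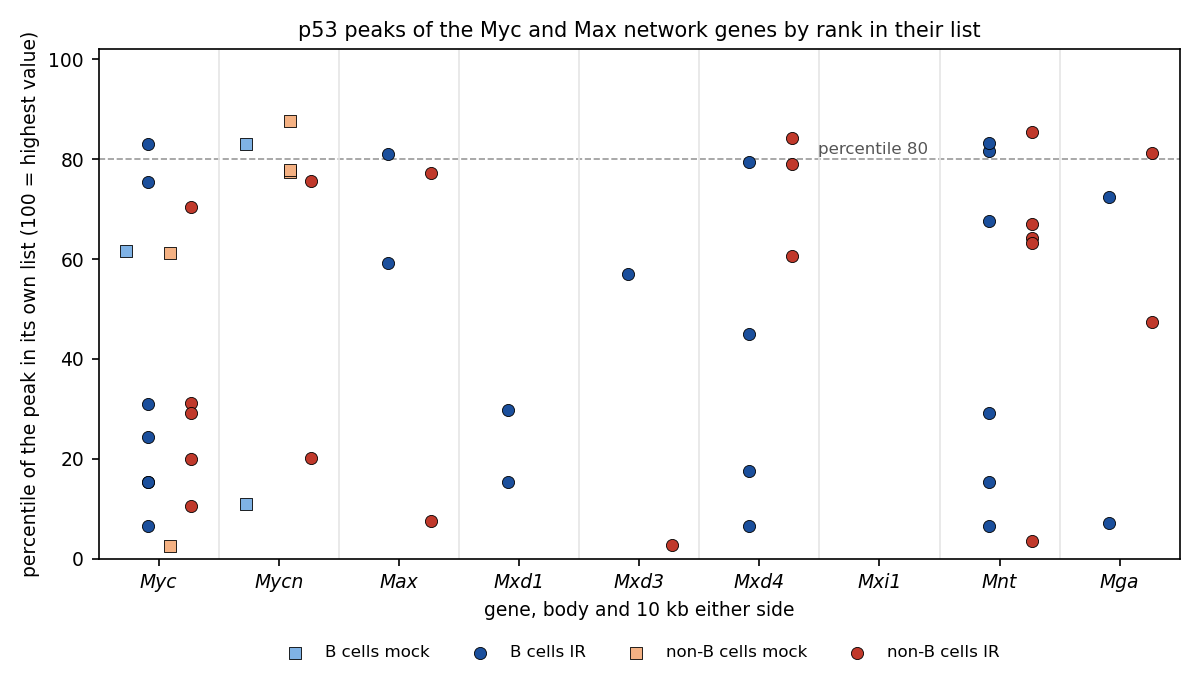
Each point is 1 peak in the window of the gene on the x axis, placed by the percentile of its deposited value within its own list (100 is the highest value of the list), with squares for mock and circles for IR lists and the dashed line at percentile 80. Mxi1 has no point, Myc and Mycn alone have squares, and Mnt alone lies above the line in both IR lists.

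Myc (ENSMUSG00000022346.8, chr15:61816946-61821929, plus strand), the founding oncogene of the family, had 7 peaks in irradiated B cells, more than any other network gene in that list. The highest, at chr15:61813024-61813687, had a value of 44.4 and rank 4150, within the highest 16.9% of the list, with its midpoint 3591 bp upstream of the first start. The next, at chr15:61816286-61816833, had a value of 33.9 and rank 6030, with its midpoint 387 bp upstream. These 2 upstream sites stood apart from the other 5 peaks of irradiated B cells, whose values ran from 8.33 to 13.9. In irradiated non-B cells there were 5 peaks, as many as at Mnt, each overlapping an irradiated B cell peak. The highest was the same far site, at chr15:61813080-61813573, with a value of 29, rank 6306 and the highest 29.5% of the list. The site next to the start was lower in that list, at chr15:61816516-61816828, with a value of 13.1 and the highest 70.9%, against the highest 24.6% in irradiated B cells. The 2 further peaks, at 1844 bp upstream and over the first exon, had values of 13.9 and 11.2, and the lowest, of 9.27 at chr15:61819119-61819585, lay in a coding exon. The 2 irradiated B cell peaks without a counterpart lay in an intron and the noncoding part of an exon, at chr15:61818136-61818493 with a value of 12.1 and at chr15:61818566-61818976 with a value of 10.2.

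Without irradiation the peaks at Myc lay in its coding exons. Mock-treated B cells had 1, 55 bp wide, with a value of 10.3, rank 542 of 1413 and the highest 38.4% of the list. Mock-treated non-B cells had 2, at chr15:61819567-61819710 with a value of 12.2 and rank 277 of 712, and 1 of 53 bp with a value of 5.81 and rank 695. All 3 lay wholly in coding exons. The B cell peak and the higher non-B cell peak each overlapped the lowest irradiated non-B cell peak at Myc, and neither mock list had a peak at the upstream sites that led after irradiation.

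Mycn (ENSMUSG00000037169.8, chr12:12942902-12948720, minus strand), the paralog best known from neural and other embryonic tissue, had a different distribution over the lists from every other gene of the network. Mock-treated B cells had 2 peaks, at chr12:12946656-12946747 with a value of 6.58 and rank 1258, and at chr12:12946960-12947039 with a value of 15.7 and rank 240, within the highest 17% of the list. Mock-treated non-B cells had 3, at chr12:12943842-12944019 with a value of 17.9, at chr12:12944073-12944380 with a value of 18.4, and at chr12:12946419-12947142 with a value of 27.9. The last had rank 89 of 712, the highest 12.5% of the list and the best rank of any network peak in a mock list. Irradiated B cells had no Mycn peak, and its nearest peak was 307 kb from the gene. Irradiated non-B cells had 2, at chr12:12943884-12944326 with a value of 11.2 and at chr12:12946463-12947135 with a value of 33.5, rank 5218 and the highest 24.4% of the list. Mycn was thus the gene with peaks in both mock lists and none in the longest list.

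Every Mycn peak lay wholly inside a coding exon, and several ended close to the borders of its coding part. Mycn has 2 coding blocks, chr12:12943815-12944416 and chr12:12946416-12947199. In genomic order, the mock-treated non-B cell peak at the latter began 3 bp inside the block and ended 57 bp before its other end, so that it covered 92.3% of the block, and the printed edge sequence shows the splice border beside which it stopped. The irradiated non-B cell peak there began 47 bp inside and ended 64 bp before the other end, covering 85.8%. At the other block the mock-treated non-B cell peaks left 27 bp at one end and 36 bp at the other, and the IR peak left 69 bp and 90 bp and covered 73.6%. No peak of any list was found in the Mycn introns, noncoding exon parts or flanks. The mock-treated B cell peaks at Mycn covered 11.7% and 10.2% of their block, and the mock peaks at Myc covered 7.12% (B cells), 18.7% and 9.46% (non-B cells) of theirs.

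**Figure D3:**
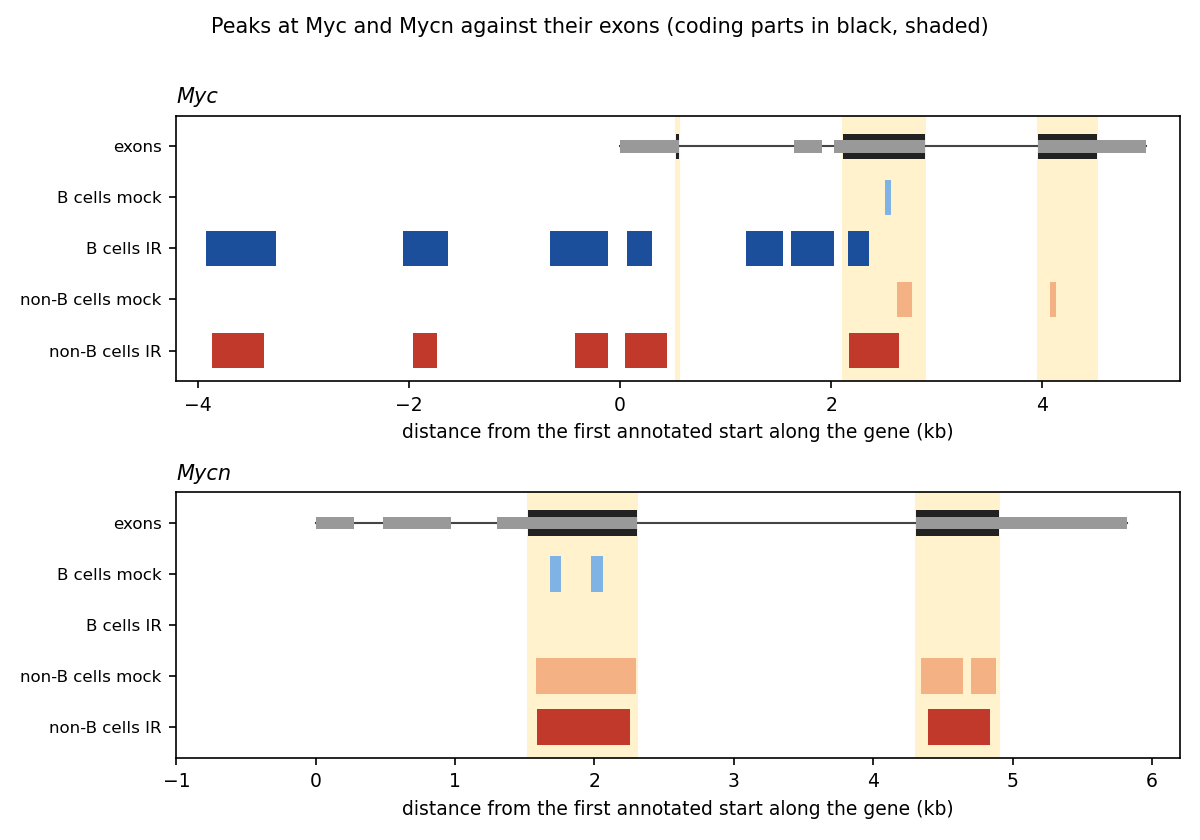
Peaks at Myc and Mycn in the 4 wild-type lists, by distance from the first annotated start along the gene in kb, with exons in grey, their coding parts in black and the coding range shaded. All mock peaks fall within the shaded ranges at both genes, as do both non-B cells IR peaks at Mycn, whereas most IR peaks at Myc lie upstream of them.

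Peaks of this kind were rare in the lists. Lying wholly inside a coding exon was not a planned measure and was chosen after the peaks were seen. The shares over all peaks include the network peaks. Of the network peaks, 3 of 3 in mock-treated B cells and 5 of 5 in mock-treated non-B cells lay wholly inside a coding exon, against 0.92% and 1.54% of all peaks in those lists. After irradiation it was 1 of 24 in irradiated B cells and 3 of 20 in irradiated non-B cells, against 0.31% and 0.271%. The share was 9.64% in the Trp53-/- list, 8 of its 83 peaks, with none of them at Myc or Mycn. Peaks within at least 2 coding exons of 1 gene were found in mock-treated non-B cells at Myc and Mycn and at no other gene, 0.00894% of all genes. Myc met this rule only through its peak of 53 bp, with a value of 5.81 and rank 695 of 712. In irradiated non-B cells such genes were Mycn and Aim1 (0.00894%), in irradiated B cells Hic1 (0.00447%), and in mock-treated B cells there was none. Over all genes, mock-treated B cells had 13 coding exon peaks at 12 genes and mock-treated non-B cells 11 at 7 genes. Mycn led mock-treated non-B cells by summed width, with 1210 bp against 218 bp at Tab2 and 197 bp at Myc. In mock-treated B cells Tab2 led with 330 bp and the best value, 20.1, followed in width by Gm7461 with 177 bp and Mycn with 172 bp, and Myc had 55 bp. Tab2, Sac3d1, Unc45a and Tex15 had such peaks in both mock lists, as Myc and Mycn did. Aim1, Hic1, Tab2, Gm7461, Sac3d1, Unc45a and Tex15 were named after their values were seen. The origin of the coding exon peaks was not tested.

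The mock peaks were also set against the irradiated lists. None of the 3 mock-treated B cell peaks overlapped an irradiated B cell peak, whereas 88.2% of all mock-treated B cell peaks did. All 3 overlapped an irradiated non-B cell peak, as did 86.8% of all mock-treated B cell peaks. Of the 5 mock-treated non-B cell peaks, 4 overlapped an irradiated non-B cell peak, against 90.9% of all, and none overlapped an irradiated B cell peak, against 83.7%. Between the mock lists, 2 of the 3 B cell peaks (31.3% of all) and 1 of the 5 non-B cell peaks (67.1% of all) overlapped a peak of the other fraction, each time at Mycn. In B cells, therefore, no peak listed at Myc or Mycn before irradiation overlapped a peak listed after it. Binding too weak to be called as a peak leaves no entry in a list. At Myc an irradiated B cell peak, at chr15:61819103-61819300 with a value of 8.33, lay in the same coding exon as the mock-treated B cell peak. The midpoints of these 2 peaks were within 500 bp of each other. Seen from the IR lists, 0 of 24 network peaks of B cells and 3 of 20 of non-B cells overlapped a mock peak of the same cells, against 4.28% and 2.43% of all peaks.

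Max (ENSMUSG00000059436.5, chr12:78038256-78063235, minus strand), the common dimer partner, had a promoter peak and an intron peak in both IR lists. The promoter peak had a value of 40.7 and rank 4655, the highest 19% of the list, at chr12:78063076-78063512 in irradiated B cells, and a value of 35 and rank 4861, the highest 22.7%, at chr12:78063117-78063513 in irradiated non-B cells. Its midpoint lay 59 bp and 80 bp upstream of the start. Of 2 copies of CACGTG, 1 spanned the start and the other stood 276 bp upstream of it. The intron peak, at chr12:78058692-78059022 in irradiated B cells, had a value of 23.5 and the highest 40.8% of the list, against a value of 8.72 and the highest 92.4% in irradiated non-B cells. Promoter ranks were thus close in the lists and intron ranks were not, with no replicate to judge either by. Neither mock list had a Max peak.

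Among the Mxd genes, whose products oppose Myc at E-boxes, Mxd4 (ENSMUSG00000037235.7, chr5:34516536-34530369, minus strand) had the strongest peaks. Its promoter peak, at chr5:34530350-34531109 in irradiated B cells, had a value of 38.9, rank 5044 and the highest 20.6% of the list. In irradiated non-B cells, at chr5:34530347-34531030, it had a value of 44.3, rank 3386 and the highest 15.8%. It was the only network site whose peaks, in both IR lists, held a p53 response element by the rule given with the sequence search, the 20 bases in capitals above, at chr5:34530439-34530458 with 3 mismatches to the consensus. CACGTG also stood 207 bp upstream of the start. A site about 9 kb upstream differed in rank, with a value of 8.33 and the highest 93.5% at chr5:34539038-34539390 in irradiated B cells and a value of 36.6 and the highest 21% at chr5:34539090-34539505 in irradiated non-B cells. A peak at the far end of the window, with values of 17.6 and 23.5, had its midpoint 111 bp from a start of Poln, a DNA polymerase gene. Irradiated B cells had 1 more upstream peak, with a value of 10.9, without a counterpart.

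Mxd1 (ENSMUSG00000001156.7, chr6:86597038-86619153, minus strand), induced in many cells as they differentiate, had 2 intron peaks in irradiated B cells and none in another list. They lay at chr6:86615884-86616205 with a value of 13.5, rank 17217 and the highest 70.3% of the list, and at chr6:86604613-86604855 with a value of 10.2. Both were in the lower ranks of that list, and the nearest irradiated non-B cell peak was 15.2 kb from the gene. Mxd3 (ENSMUSG00000021485.7, chr13:55426529-55431119, minus strand), which is active in cycling cells, had 1 peak in each IR list, beyond the end of the gene. It had a value of 22.5 and rank 10537 at chr13:55419820-55420214 in irradiated B cells and a value of 7.34 and rank 20834 at chr13:55419966-55420168 in irradiated non-B cells, the highest 43% and 97.4%. The nearest start there was that of Rab24, 3324 bp and 3274 bp from the midpoints, so this peak was in the Mxd3 window by distance alone. Mxi1 (ENSMUSG00000025025.7, chr19:53384996-53450300, plus strand), another repressive partner of Max, had no peak in any list, with the nearest IR peak 14.7 kb from the gene in both cell fractions and the nearest mock peaks 89 kb and 115 kb away.

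Mnt (ENSMUSG00000000282.6, chr11:74644422-74659227, plus strand), a broadly expressed repressor that competes with Myc for Max, had the best ranked IR peak of the network in both fractions. At the promoter it was chr11:74643364-74644083 in irradiated B cells, with a value of 44.5, rank 4082 and the highest 16.7%, and chr11:74643334-74644323 in irradiated non-B cells, with a value of 46, rank 3118 and the highest 14.6%. A site 2309 bp upstream had a value of 41.8 in irradiated B cells and one at the same place a value of 25.3 in irradiated non-B cells. All 6 irradiated B cell peaks overlapped one of the 5 in irradiated non-B cells, which made Mnt, with Max, Mxd3 and Mga, a gene at which the fractions were listed at the same sites. An intron pair had values of 27.9 and 13.2 in irradiated B cells and of 26.8 and 25 in irradiated non-B cells. The other peaks, next to the start or in the first 2 kb after it, were weak, with values of 8.33 and 10.2 in irradiated B cells and 7.49 in irradiated non-B cells. CACGTG stood 116 bp upstream and 1385 bp downstream of the start.

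Mga (ENSMUSG00000033943.9, chr2:119722964-119795317, plus strand), the T-box protein that ties Max to the Polycomb complex PRC1.6, had 2 peaks in each IR list. The one at its start had a value of 31.6, rank 6738 and the highest 27.5% at chr2:119722753-119723491 in irradiated B cells, and a value of 39.5, rank 4020 and the highest 18.8% at chr2:119722768-119723477 in irradiated non-B cells, with the midpoint 81 bp from the nearest annotated start in both. The other, with values of 8.44 and 18.4, lay beyond the end of the gene with its midpoint 284 bp and 302 bp from a start of Mapkbp1.

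**Figure D4:**
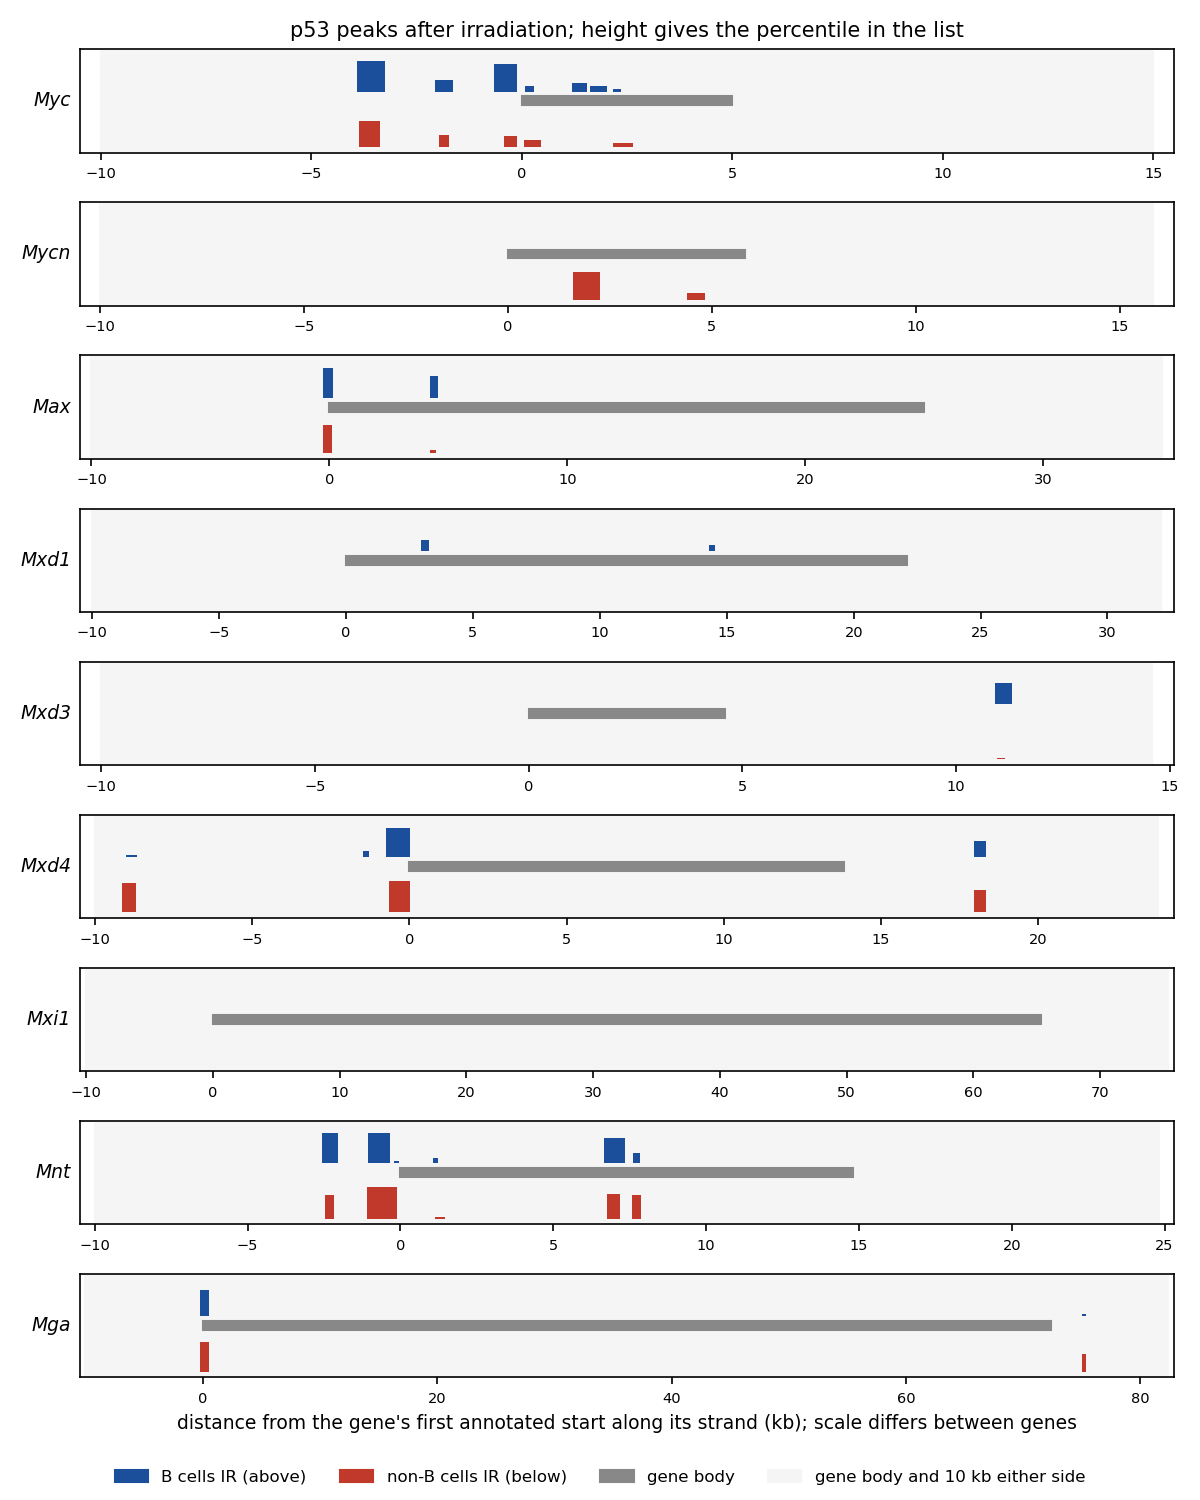
Peaks of the 2 IR lists around each gene by distance from its first annotated start in kb along the strand, with the gene body in dark grey and bar heights giving the percentile of the deposited value within the list (blue above, B cells IR, red below, non-B cells IR). Higher bars lie at or upstream of the starts of Max, Mxd4, Mnt and Mga, those of Myc are upstream, and Mxd1 and Mxd3 have none at their starts.

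Across the network, 19 of 24 irradiated B cell peaks overlapped an irradiated non-B cell peak by at least 1 bp, against 73.6% of the whole list. Of the irradiated non-B cell peaks 18 of 20 overlapped an irradiated B cell peak, against 85.3%, and the remaining 2 were those at Mycn. The irradiated B cell peaks without a partner were 2 at Myc, 2 at Mxd1 and 1 at Mxd4, all with values of at most 13.5.

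The peaks were then searched on both strands for the p53 response element, a pair of p53 consensus decamers without a spacer, with the C and G of each core required, no more than 3 mismatches, and a distance of up to 300 bp from the midpoint of the peak. It was found at 1 of 24 network peaks in irradiated B cells, against 15.3% of all peaks in the list and 3.22% of windows moved by 10 kb. In irradiated non-B cells it was found at 2 of 20, against 15.4% and 3.31%, at 0 of 3 network peaks in mock-treated B cells, against 22.3% and 2.83%, and at 1 of 5 in mock-treated non-B cells, against 34.6% and 2.53%. Apart from the Mxd4 promoter, these were the matches of the non-B cell lists near the end of the Mycn coding sequence, a single site at chr12:12943813-12943832 (tagCaaGtccgagCgtGttc on the plus strand, with the required C and G in capitals) that lay 52 bp outside the irradiated non-B cell peak. The best IR peaks of Myc, Max, Mnt and Mga held none by this rule, a statement on these letters in these windows alone.

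Closer matches were then searched for over the whole windows. With at most 2 mismatches there were 10 elements in the windows of 7 genes (none at Mxd3 and Mxi1), or 24.5 per megabase against 11.1 over all gene windows. None of the 10 lay in a peak of any list, whereas over all gene windows 12.4% of 13905 such elements lay in an irradiated B cell peak and 11% in an irradiated non-B cell peak. Distances were measured to the IR lists alone. The element closest to an irradiated B cell peak was upstream of Myc at chr15:61812700-61812719, 305 bp from the highest such peak of the gene. It stood 361 bp from the highest irradiated non-B cell peak of Myc. In that list the Mycn element at chr12:12943813-12943832 was closer, 52 bp from a peak with a value of 11.2. The sequence of the Myc upstream element and that of the Mxd4 intron, 4157 bp from the nearest irradiated non-B cell peak, follow. The required C and G are in capitals.
Myc upstream, chr15:61812700-61812719, plus strand: aaaCtaGcttgaaCtgGctg
Mxd4 intron, chr5:34526171-34526190, plus strand: aggCaaGacagaaCttGtcc

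CACGTG, searched in the same windows (the sequence is the same on both strands), was found at 5 of 24 network peaks in irradiated B cells, against 12.5% of all peaks and 7.76% of moved windows. These were at Max, Mxd1, Mxd4 and Mnt, with 2 at Mnt. In irradiated non-B cells it was found at 3 of 20, against 12.9% and 7.77%, at Max, Mxd4 and Mnt. It was found at none of the mock peaks, against 8.92% of all peaks and 7.78% of moved windows in B cells and 8.43% and 8.29% in non-B cells.

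The strongest p53 site near Myc lay outside its window, in Pvt1 (ENSMUSG00000072566.3, chr15:61869542-62209651, plus strand), a long noncoding RNA gene that begins 47.6 kb after the end of Myc. A peak over 1 intron site was listed in all 4 wild-type lists, 53.9 kb from the Myc start. Its midpoint lay 1272 to 1305 bp after the first start of Pvt1 itself. In irradiated B cells, at chr15:61869895-61871760, it had a value of 287 and rank 38, the highest 0.155% of the list, and in irradiated non-B cells, at chr15:61869942-61871695, a value of 436 and rank 82, the highest 0.383%. Without irradiation it had a value of 18.5 and rank 204 in B cells (chr15:61870642-61870986) and a value of 20.1 and rank 142 in non-B cells (chr15:61870662-61871033), within the highest 14.4% and 19.9%. Each of these intervals held the element printed above, at chr15:61870762-61870781, with 1 mismatch to the consensus. This site was thus listed in the same place with and without irradiation in both fractions. The Pvt1 window held 11 peaks in irradiated B cells and 9 in irradiated non-B cells, and no Trp53-/- peak.

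Genes that work with the network were taken from 7 lists of 44 genes in all. 1 of them, Pvt1, forms a list of its own and, as a noncoding RNA gene, is not among the protein-coding genes used for comparison. Its gene body spans 340 kb, against a median window of 35.4 kb over all protein-coding genes. A peak was found in the windows of 40 of the 44 in irradiated B cells and of 38 in irradiated non-B cells, or 90.9% and 86.4% against the 53.3% and 51.8% of all genes. The mock lists had a peak at 5 (B cells) and 3 (non-B cells) of them, or 11.4% and 6.82% against 4.46% and 2.27%, and the Trp53-/- list at 0. These lists hold many broadly expressed genes, and their expression in the sorted cells was not measured here. All 9 Myc coactivators, such as Trrap and the helicases Ruvbl1 and Ruvbl2, all 8 genes of Myc turnover and phosphorylation and all 10 E-box targets had a peak in both IR lists. Of the 6 corepressor genes of Mxd and Mnt, 6 had one in irradiated B cells and 5 in irradiated non-B cells. Of the 4 genes of the Mlx arm and L-Myc 3 had one in both, and of the 6 partners of Mga in PRC1.6 3 had one in irradiated B cells and 2 in irradiated non-B cells, or 50% and 33.3%.

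A response element at a peak was found in both IR lists at 6 of the 44 genes, Pvt1 and 5 others, against 9.42% of all protein-coding genes. Pvt1 is outside that background, and the 5 others alone were near its share. Fbxw7, the ubiquitin ligase subunit that marks Myc for degradation, had 3 such peaks in each list. Its best peak, 834 bp and 822 bp upstream of a start, had a value of 51.4 and rank 3242 in irradiated B cells (chr3:84618122-84618591) and of 72 and rank 1512 in irradiated non-B cells (chr3:84618101-84618636). Gsk3b, the kinase that phosphorylates Myc for recognition by Fbxw7, Huwe1, another ubiquitin ligase, Tert, the telomerase reverse transcriptase, and Cad, an enzyme of pyrimidine synthesis, had 1 each. A peak within the highest 5% of both IR lists was found at 2 of the 44, against 3.12% of all protein-coding genes. These were Pvt1, outside that background, and the E-box target Nme1, which alone is near that share. The best Nme1 peak had a value of 108 and rank 907 in irradiated B cells (chr11:93829418-93830020). In irradiated non-B cells (chr11:93829429-93830002) it had a value of 149 and rank 550. The nearest start there was that of the neighbour Nme2. In the mock lists peaks stood, among others, at Nme1 and Pvt1 in both fractions and at Gsk3b and Sin3a in B cells.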

How the data were processed

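The study sequenced p53 ChIP DNA from mouse spleen, and 5 of its 6 libraries have a peak list, 1 per library. Per the submitters' processing notes and the study's methods, reads were aligned to mm9 with BWA 0.6.2, SAMtools was used, and peaks were called with MACS. Each deposited list gives position, name and 1 value per peak, which the files do not name. It was read as the authors' −log10 of a peak p-value from its match to Poisson probabilities of whole read numbers at a single mean. In the wild-type lists 25.3 to 36.6% of the values below 40 matched, and the others did not. The mean was chosen for each list as the best match, and the share expected by accident was not measured. The unit is therefore an inference, and strength was compared by rank within a list. The Trp53-/- list was too short for this check. Values began at 5.01 to 5.85, below the calling limit of 8 that the methods give in that unit. Below 8 lay 31.6% and 20.9% of the peaks of mock-treated B and non-B cells. In irradiated B and non-B cells it was 4.5% and 4.53%. Read totals were not in the lists and depth is unknown. The smallest width was 55 and 53 bp in the mock lists, 55 bp in the Trp53-/- list and 175 and 174 bp in the IR lists, and its effect on peak numbers was not measured.

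Peaks were ranked by value within a list (ties at the lowest rank), assigned to genes of GENCODE vM1 on NCBIM37 by overlap of at least 1 bp with the gene body and 10 kb either side, and to features by midpoint, with coordinates counted from 1. Response elements and CACGTG were searched within 300 bp of midpoints, and in windows moved by 10 kb. The background is the same measure over all 22367 protein-coding genes or all peaks of a list. Each group had 1 library, so no test was run. The members and the 7 related gene lists were chosen with earlier results of these data known. All members were named, and related genes were named when a peak was in the highest 5% of a wild-type list or held an element in both IR lists. The coordinate, overlap and element steps were tested on simulated data and recovered 60 of 60 planted gene peaks, 30 of 30 overlaps and 200 of 200 elements. Alternatives changed the window, the overlap rule, the minimum value, list lengths, merging, the element rule and the ranking. Reference tables on another assembly were not used. Some related genes and sequences are not reported here. Python 3.11.15, numpy 2.4.6, scipy 1.17.1, pysam 0.24.0 and matplotlib 3.10.9 were used.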

Additional observations from a re-analysis of the deposited data

How the results depend on the processing

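For results with a reported value above 0, 115 values were recomputed under other settings, of which 91 stayed within 1.5 times of the reported one and 24 moved further. Results at 0, which many of the settings could not move, are not in this count. A minimum value of 8 left 6 network genes and 18 peaks in irradiated non-B cells, without Mxd3. In mock-treated B and non-B cells it left 2 and 4 peaks. A minimum value of 20 left 0 network genes and 0 peaks in mock-treated B cells, 1 gene and 1 peak in mock-treated non-B cells, and 10 and 11 peaks in irradiated B and non-B cells. Leaving out peaks wholly inside a coding exon, a setting chosen after seeing the data, left 0 genes and 0 peaks in both mock lists. With the gene body alone there were 13 and 11 peaks in irradiated B and non-B cells, and in the range from 5 kb upstream to 2 kb downstream of a start 2 peaks in mock-treated non-B cells. Element counts in mock-treated B cells, irradiated B cells and mock-treated non-B cells became 1, 2 and 2 with a spacer of up to 15 bases and at most 2 mismatches. Without a spacer, at most 2 mismatches gave 0 in irradiated B cells and 1 in irradiated non-B cells, and elements inside the peak interval numbered 0 in mock-treated non-B cells and 1 in irradiated non-B cells. CACGTG lay inside the interval of 3 irradiated B cell peaks. Ranked by width, the median best peak stood within the highest 68.9% in mock-treated B cells, 12.3% in irradiated B cells, 16.8% in mock-treated non-B cells and 9.09% in irradiated non-B cells. With midpoints within 500 bp, 1 mock-treated B cell peak, that at Myc, had a counterpart in irradiated B cells. The causes of these moves were not tested beyond what each setting removes. No paired analysis was possible because there was a single library in each group. The unknown depth limits every statement on a missing peak.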
